A study of Macaca mulatta with 102 samples.

Results

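Interferon-stimulated genes were followed in CD3-positive T cells that had been sorted by flow cytometry from the blood of rhesus macaques, healthy or at set days after a transplant of hematopoietic cells. A list of 34 such genes was taken by name. Of these, 30 had a probe set that the annotation of the array pairs with that gene alone, and the 30 genes held 63 such probe sets. They were 30 of the 10718 genes tested. IRF9, EIF2AK2, RSAD2 and USP18 had no probe set of their own and are not analysed here. All 30 genes passed the filter on low values, and 0 of their group means lay below 5.21, the median of all values.

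Interferons are secreted proteins that warn cells of infection. Type I interferons bind a shared receptor, whose kinases JAK1 and TYK2 pass the signal to transcription factors, STAT2 and IRF9 among them, that enter the nucleus and switch on antiviral genes. In contrast, interferon gamma, a product of activated T cells and NK cells, binds a receptor of its own and acts on an overlapping set that includes the guanylate-binding proteins and IRF1. Many of these genes encode sensors or factors of the same pathway, so that a first response raises the next one.

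Of 102 arrays from 66 animals, 46 are labelled as healthy controls, with no day after transplant (45 animals, with both arrays of R.201 averaged), and 56 followed a transplant, in 15 groups. Of the 45 healthy animals, 11 also gave arrays after a transplant. Animals that received their own cells are Auto.D14 (3 arrays), Auto.D36 (4 arrays, taken between days 30 and 36) and Auto.D100 (4 arrays). The others received donor cells. NoRx.F (4 arrays, between days 6 and 12) had, as the group name gives it, no drug against graft-versus-host disease, and Siro.F (4 arrays, between days 12 and 24) had sirolimus, an mTOR inhibitor. The calcineurin inhibitor tacrolimus and the antifolate methotrexate mark Tac.Mtx.D14 (3 arrays) and, between days 26 and 67, Tac.Mtx.F (3 arrays). Sirolimus with belatacept, a CD28 costimulation blocker, marks Bela.Siro.D14 (3 arrays), Bela.Siro.D30 (2 arrays) and, between days 26 and 105, Bela.Siro.F (7 arrays). KY1005 is an antibody against OX40 ligand. On its own it marks KY1005.D14 (2 arrays, days 14 and 16) and KY1005.F (3 arrays, between days 16 and 23). Sirolimus was added in KY1005.Siro.D14 (5 arrays), in KY1005.Siro.D28 (5 arrays) and in KY1005.Siro.F (4 arrays, between days 97 and 106). Drug names are read from the group names, and the suffix F is used as given. The days differ between regimens, and 22 animals gave more than 1 array, so that the groups are not fully independent.

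Levels are log2 RMA signals, a scale on which 1 unit is a doubling, and are compared only within a probe set. Differences are fitted log2 differences ± SE from limma, with the labelled batch as a term, so they can depart from the difference of the group means. A gene was called higher or lower at an adjusted p under 0.05 over 31711 probe sets. Where arrays of a called gene are said not to overlap, the same values gave the call. The share of all genes without overlap is not given here. Array medians ran from 5.13 to 5.35. The T cell markers ZAP70, LAT and CD5 had healthy means of 12.52, 10.65 and 10.84, while CD3E and 7 other genes of the T cell list are not analysed here. Of 13 monocyte and myeloid markers, S100A12 had the lowest healthy mean at 3.502, CD14 lay at 6.48, and S100A8 spanned 4.73 to 14.31 over all arrays. Their mean, set to 0 in healthy animals, ran from -1.06 to 1.27 in healthy arrays and is given beside the groups, with the count of called markers of 9 cell types. Actin control probe sets at the 3' end stood more than 2.5 (log2) above those at the 5' end, a sign of lower RNA integrity, in 6 arrays. These were R.201 and R.202 in Auto.D14 and 4 healthy arrays. In sorted cells in bulk, a change in the share of a cell type and a change in RNA per cell cannot be told apart.

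In healthy animals the 30 genes were not equally variable. IFI27, a mitochondrial protein induced by type I interferon, ran from 6.07 to 10.49 with a median of 7.53 over 45 animals, the widest spread (SD 0.90) of the 30 genes, followed by IFIT1 with an SD of 0.81. The highest IFI27 value was that of R.47, and the next was 9.68 in R.56. The top of the healthy range of IFI27 thus rests on R.47 alone. ISG15, a ubiquitin-like modifier, ran from 7.31 to 9.30 with a median of 7.93, and MX1, a GTPase that traps viral nucleocapsids, from 6.63 to 8.74 with a median of 7.69. IFIT1, which binds viral RNA that lacks cap methylation, ran from 4.48 to 7.93 with a median of 6.44. IFITM1, a membrane protein that blocks viral entry, lay near the top of the scale at 13.76 with an SD of only 0.051. The mean of the 30 genes, set to 0 in healthy animals, ran from -0.38 to 0.37 among healthy arrays (SD 0.20).

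Most pairs of genes had a positive correlation from array to array. After removal of group and batch means, the median Pearson correlation over the 435 pairs of genes was 0.31 across 101 arrays, and 0.16 across the 45 healthy arrays. It was below 0 in 51 pairs over all arrays and in 104 in healthy arrays, lowest at -0.43 for OASL and GBP1 in healthy arrays (0.18 over all). The pair MX2 and ISG15 had 0.87 over all arrays and 0.76 in healthy arrays. IFIT1 and IFIT3, neighbours in function that form a complex on viral RNA, had 0.87 and 0.77. PARP9, an ADP-ribosyltransferase, and XAF1, a pro-apoptotic protein, had 0.67 and 0.82. Against the mean of the other members, MX2 had the highest correlation at 0.85, followed by XAF1 at 0.82 and ISG15 at 0.81. OAS1 had -0.12, DDX60 0.092 and IRF7 0.13, the lowest values of the 30. These are values of the probe set used, and other probe sets of these genes differed from it in some groups, as given below. All these correlations share arrays and are descriptions.

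After transplant the mean of the 30 genes lay above every healthy array in 39 of 56 arrays, and below 0 in 5. Per array, 0 to 24 of the 30 genes exceeded their highest healthy value. The share of all genes that did so in each array is not given here, so these counts are not set against it. All arrays of Auto.D14, Auto.D36, KY1005.D14, KY1005.Siro.F, NoRx.F, Tac.Mtx.D14 and Tac.Mtx.F lay above the healthy range of the mean. None of the 3 arrays of Bela.Siro.D14 did, and 1 of 5 in KY1005.Siro.D28. The highest group mean was 1.22 ± 0.69 (SD, n = 4) in KY1005.Siro.F, followed by 0.90 ± 0.41 (n = 3) in Tac.Mtx.F and 0.86 ± 0.46 (n = 4) in NoRx.F. These groups overlap within their spread. The lowest was 0.14 ± 0.056 (n = 3) in Bela.Siro.D14, and 0.25 ± 0.51 (n = 5) in KY1005.Siro.D28.

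**Figure D1:**
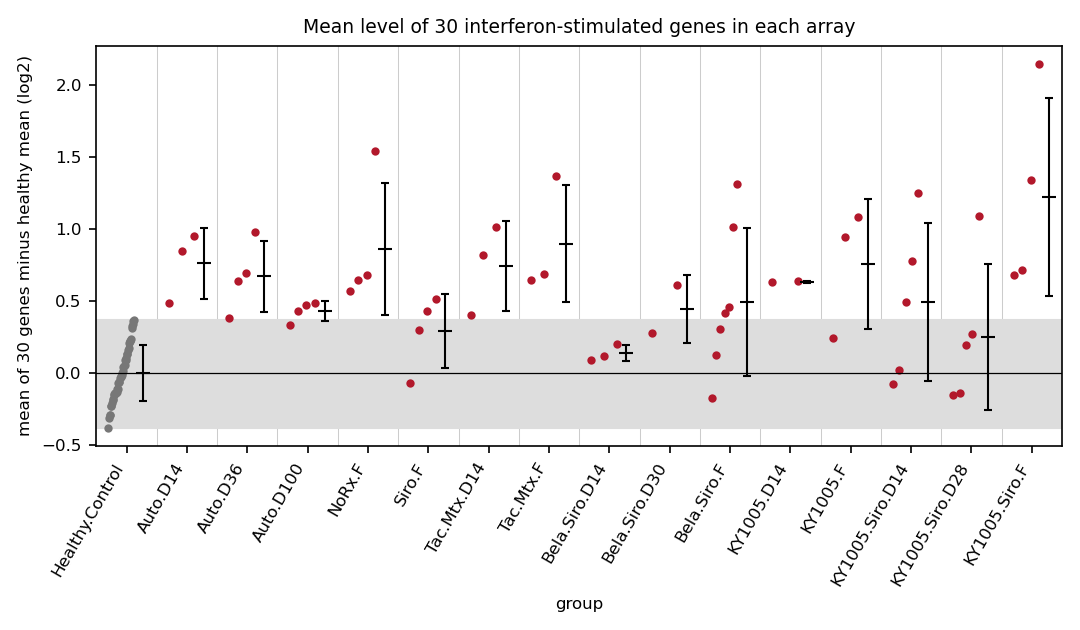
Mean of the 30 interferon-stimulated genes in each array (points; y axis, log2, healthy mean set to 0) by group, with the group mean and SD (black) and the range of healthy arrays (grey band, -0.38 to 0.37). In 39 of 56 arrays after transplant the point lies above the band.

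Of the 30 genes, 26 were called higher than in healthy controls in at least 1 of 15 groups, and 11 had a positive difference in all 15. Over all 10718 genes, 36.9% were called higher in at least 1 group, and 2.74% had a positive difference in all 15. ISG15 was called higher in 10 groups. IFI27 and EPSTI1, an epithelial-stromal interaction gene, were called in 9, and MX2, IFI35 and XAF1 in 6. MX1, OAS2, which makes the second messenger 2-5A, and IFIH1, the cytosolic RNA sensor MDA5, were called in 5. IFIT2 and IRF1 were called in no group. IFITM1 was not called either in the probe set used, and its differences ran from 0.039 to 0.14. The other probe set of IFITM1 was called higher in 2 groups, with differences from -0.19 to 0.38. STAT2, a subunit of the type I interferon factor, was called in 2 groups. The 15 comparisons share the healthy controls.

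**Figure D2:**
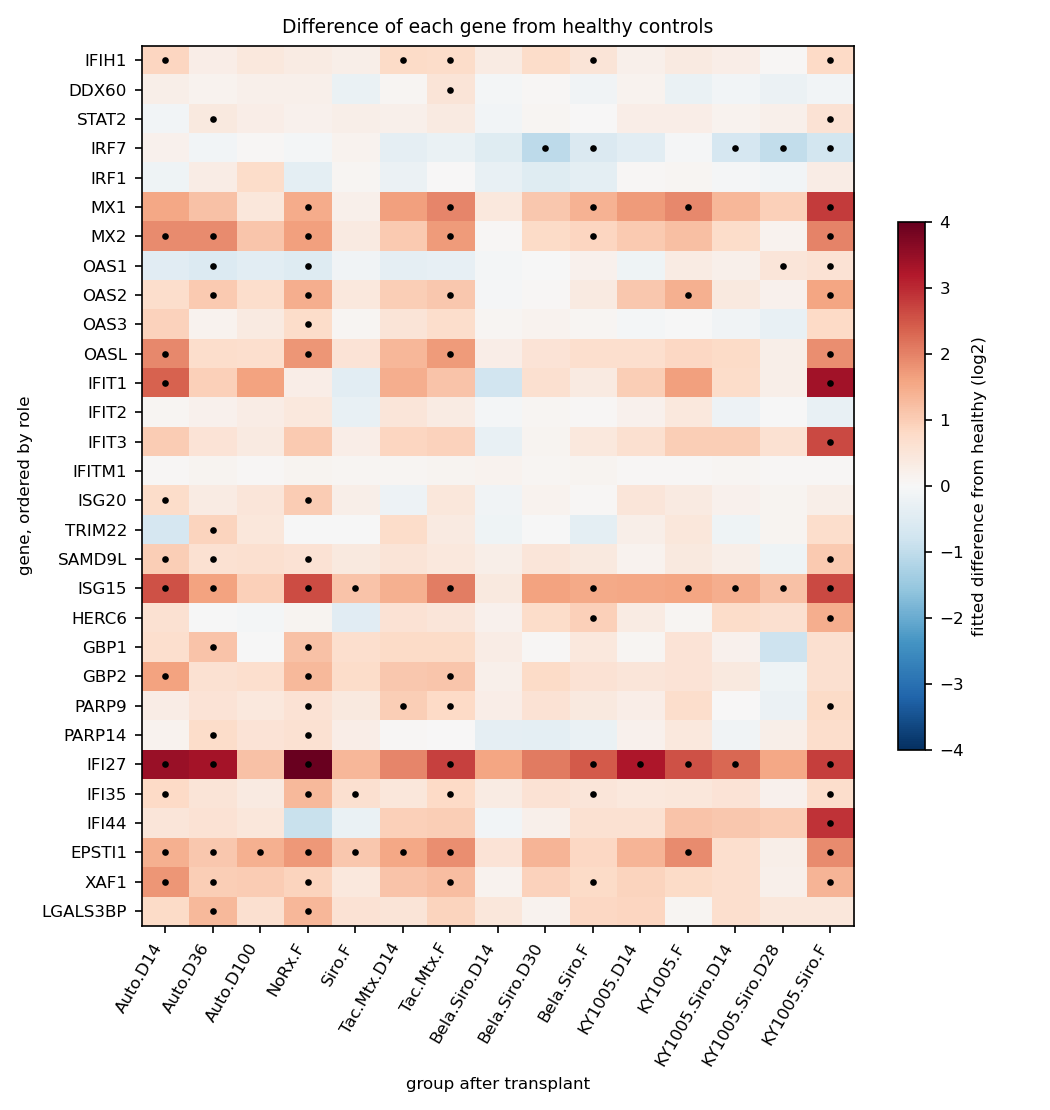
Fitted log2 difference from healthy controls of the 30 genes (y axis, ordered by role) in the 15 groups after transplant (x axis); red is higher, blue is lower, and a black dot marks an adjusted p under 0.05. IFI27, ISG15 and EPSTI1 are marked in most columns, and IRF7 is marked blue in 5.

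T cells of the 4 recipients without prophylaxis had 17 of the 30 genes higher and 1 lower than the healthy controls, with a median difference of 0.68 against 0.05 over all genes. In the same comparison 19% of the 10718 genes tested were higher and 15.2% lower. IFI27 stood at 11.67 in R.50, 11.08 in R.51, 12.89 in R.52 and 11.31 in R.53, all above the highest of 45 healthy animals, and rose by 3.96 ± 0.56 (adjusted p = 2.22e-08). ISG15 stood at 10.48 in R.50, 10.49 in R.51, 11.56 in R.52 and 10.19 in R.53, again without overlap, and rose by 2.61 ± 0.40 (adjusted p = 1.25e-07). ISG15 is conjugated to other proteins after interferon exposure. MX1 stood at 9.20 in R.50, 8.69 in R.51, 10.79 in R.52 and 8.47 in R.53, of which 2 exceeded the healthy range, and rose by 1.47 ± 0.50 (adjusted p = 0.0186). IFIT1 stood at 6.40 in R.50, 5.87 in R.51, 8.53 in R.52 and 6.86 in R.53 and was not called (difference 0.27 ± 0.65). Only R.52 had IFIT1 above the healthy range. OASL, an RNA-binding relative of the 2-5A synthetases, rose by 1.75 ± 0.37, EPSTI1 by 1.75 ± 0.36 and MX2, which blocks nuclear import of retroviral DNA, by 1.65 ± 0.37. Both guanylate-binding proteins were higher, GBP2 by 1.31 ± 0.35 and GBP1 by 1.18 ± 0.37, and ISG20, an RNA exonuclease, by 1.02 ± 0.16. OAS1 fell by 0.51 ± 0.17 (adjusted p = 0.015), with all 4 arrays below every healthy one. Its other probe sets went against this: one stood at 1.48 ± 0.26, one at 1.23 ± 0.21, both called higher, and one at -0.18 ± 0.38. IFI44 also had a negative difference, -0.89 in the probe set used, which was not called. The other probe set of IFI44 was called lower, at -1.33. The array mean was 0.68 in R.50, 0.57 in R.51, 1.54 in R.52 and 0.64 in R.53. R.52 stood apart, and without it 9 genes were called. The myeloid mean was 1.79 in R.50, -0.31 in R.51, 1.88 in R.52 and 0.54 in R.53. Called markers were 3 higher and 1 lower of 13 myeloid, 2 higher of 3 plasmacytoid dendritic cell, 2 lower of 7 T cell, 2 lower of 5 NK cell, 1 higher of 7 B cell and 2 higher of 6 plasma cell markers. The mean of 3 plasmacytoid dendritic cell markers was 1.36 in R.50, 1.25 in R.51, 1.64 in R.52 and 1.46 in R.53, all above the highest healthy array at 0.53. Those called were IRF8 at 2.52 ± 0.30 and GZMB at 1.70 ± 0.36, which T cells can also express. The mean of 7 T cell markers was -0.12 in R.50, -0.32 in R.51, -0.57 in R.52 and -0.50 in R.53, with TRAT1 lower by 1.47 ± 0.21, and the NK cell marker KLRF1 was lower by 2.79 ± 0.64. The part of these markers in the result was not tested.

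Under sirolimus alone 3 of 30 genes were higher and 0 lower, with a median difference of 0.26 against 0.02. Over all genes, 6.04% of the 10718 genes tested were higher and 4.92% lower. ISG15 stood at 9.35 in R.13, 8.09 in R.16, 9.71 in R.17 and 9.44 in R.18, 3 of which exceeded the healthy range, and rose by 1.14 ± 0.38 (adjusted p = 0.0428). EPSTI1 rose by 1.09 ± 0.35 (adjusted p = 0.0331) and IFI35, an interferon-induced leucine zipper protein, by 0.64 ± 0.18 (adjusted p = 0.0156). R.16 lay within the healthy range for each of the 4 genes followed in every array. IFI27 stood at 8.995 in R.13, 8.06 in R.16, 9.35 in R.17 and 9.81 in R.18, all inside the healthy range, and was not called (1.34 ± 0.54). MX1 stood at 7.10 in R.13, 7.37 in R.16, 8.95 in R.17 and 8.41 in R.18 and IFIT1 at 6.22 in R.13, 5.48 in R.16, 7.17 in R.17 and 5.83 in R.18, with differences of 0.20 ± 0.47 and -0.42 ± 0.62 that were not called. Against NoRx.F, which shares its batches, 3 of 30 genes were lower and 0 higher, where 5.17% of all genes were lower and 3.85% higher. The median was -0.59 against -0.03 over all genes. IFI27 was lower by 2.62 ± 0.68 (adjusted p = 0.00875), ISG15 by 1.48 ± 0.48 (adjusted p = 0.0462) and ISG20 by 0.80 ± 0.19 (adjusted p = 0.00433). In each of these 3 genes all 4 sirolimus arrays lay below all 4 of NoRx.F, a description of the values that gave the calls. The days differ, 12 to 24 against 6 to 12. Without R.52 of NoRx.F or R.16 of Siro.F 0 genes were called between the groups, and 5 without R.53. Without R.13, R.17 or R.18, 0 were called against healthy controls. The myeloid mean of Siro.F was 0.84 in R.13, -0.02 in R.16, 0.67 in R.17 and 0.77 in R.18. Among cell type markers, those called were 1 higher of 3 plasmacytoid dendritic cell, 1 higher of 7 B cell and 2 higher of 6 plasma cell markers, and their part was not tested.

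Under tacrolimus and methotrexate the median difference was alike at both times, 0.75 at day 14 and 0.78 later, against 0.02 and 0.05 over all genes. At day 14 3 genes were higher and 0 lower, where 1.07% of all genes were higher and 0.103% lower. At the later time 13 were higher and 0 lower, where 10.1% were higher and 2.82% lower. EPSTI1 was called at both times, 1.53 ± 0.39 (adjusted p = 0.0323) and 1.87 ± 0.39 (adjusted p = 0.000966). IFIH1, the RNA sensor, also was, at 0.76 ± 0.19 and 0.73 ± 0.19, as was PARP9, which works with the ubiquitin ligase DTX3L, at 0.99 ± 0.23 and 0.80 ± 0.23. The same 3 animals gave both arrays. At day 14 ISG15 stood at 8.998 in R.19, 10.54 in R.20 and 9.06 in R.21 and later at 9.19 in R.19, 11.25 in R.20 and 10.08 in R.21, higher in each animal. It was called at the later time only, by 2.06 ± 0.43 (adjusted p = 0.000886), and the difference between the times was not tested here. IFI27 stood at 9.71 in R.19, 10.45 in R.20 and 9.38 in R.21 at day 14. It then stood at 10.17 in R.19, 11.47 in R.20 and 10.20 in R.21, and the later group rose by 2.73 ± 0.61 (adjusted p = 0.00156). MX1 had all 3 later arrays above the healthy range, at 9.03 in R.19, 10.87 in R.20 and 9.24 in R.21, after 9.57 in R.19, 10.28 in R.20 and 8.35 in R.21 at day 14, and rose by 1.95 ± 0.54 (adjusted p = 0.00881). IFIT1 stood at 8.04 in R.19, 7.84 in R.20 and 8.66 in R.21 at day 14 and at 7.34 in R.19, 9.32 in R.20 and 6.91 in R.21 later. R.21 thus had the highest IFIT1 of the group at day 14 and the lowest later. MX2 and OASL rose by 1.71 ± 0.41 and 1.70 ± 0.40 at the later time, again with no overlap. Without R.20, 2 genes were called at the later time and 0 at day 14, and without R.19 0 at day 14. The myeloid mean was 0.72 in R.19, 0.90 in R.20 and 1.43 in R.21 at day 14 and 0.31 in R.19, 0.90 in R.20 and 0.97 in R.21 later. The markers called were 1 higher of 6 erythroid markers at day 14. Called markers were 2 higher of 13 myeloid and 1 higher of 7 platelet markers later, and their part was not tested.

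Under belatacept with sirolimus the gene mean at day 14 was the lowest of the 15 groups. There 0 genes were higher and 0 lower by limma (3 at an unadjusted p under 0.05), where 2.31% of all genes were higher and 0.765% lower, and the median difference was 0.11 against 0.08 over all genes. ISG15 stood at 8.23 in R.38, 8.59 in R.42 and 8.69 in R.49 and MX1 at 8.11 in R.38, 8.12 in R.42 and 8.28 in R.49, inside the healthy range. IFI27 stood at 9.33 in R.38, 8.86 in R.42 and 10.20 in R.49 and IFIT1 at 7.33 in R.38, 5.37 in R.42 and 5.20 in R.49, likewise inside it. The myeloid mean was 1.75 in R.38, 2.25 in R.42 and 0.25 in R.49, and the gene mean 0.20 in R.38, 0.09 in R.42 and 0.12 in R.49. Among cell type markers, those called were 3 higher of 13 myeloid and 1 higher of 6 plasma cell markers. At day 30 the 2 animals had ISG15 at 9.91 in R.38 and 9.52 in R.42, both above the healthy range, and a median difference of 0.17. Of the 30 genes 0 were higher and 1 lower, where 0.877% of all genes were higher and 0.345% lower. The lower gene was IRF7, described with its other probe set below, and without R.38 it was not called. At day 30 IFI27 stood at 10.56 in R.38 and 9.33 in R.42, MX1 at 9.04 in R.38 and 8.68 in R.42 and IFIT1 at 8.29 in R.38 and 6.46 in R.42. R.38 was the higher animal in each. The myeloid mean was -0.08 in R.38 and 1.64 in R.42, and 0 of the markers of 9 cell types were called.

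In the 7 later arrays of belatacept with sirolimus 8 genes were higher and 1 lower, with a median difference of 0.41 against 0.04. Of all genes 7.86% were higher and 3.82% lower. IFI27 had a lowest, median and highest value of 8.89, 10.09 and 12.74 and rose by 2.47 ± 0.45 (adjusted p = 4.81e-05). ISG15 had 8.17, 9.29 and 11.49 and rose by 1.51 ± 0.31 (adjusted p = 0.000476). MX1 had 6.67, 9.01 and 11.47 and rose by 1.40 ± 0.39 (adjusted p = 0.0124), with 5 of 7 arrays above the healthy range. HERC6, a relative of the ligase that attaches ISG15, rose by 0.96 ± 0.22 with 4 of 7 arrays above that range, MX2 by 0.86 ± 0.30 and XAF1 by 0.76 ± 0.23. IFIT1 had 4.85, 7.38 and 9.01 and was not called (0.37 ± 0.52). The animals differed widely, from an array mean of -0.17 in R.66 at day 26 to 1.01 in R.70 at day 35 and 1.31 in R.67 at day 105. Without R.67 5 genes were called, and 5 without R.70. By array the myeloid mean was 0.71 in R.38, 2.38 in R.42, 1.65 in R.49, 2.18 in R.66, 1.03 in R.67, 0.57 in R.68 and 0.27 in R.70, with R.42, R.49 and R.66 above the healthy range. The markers called were 4 higher of 13 myeloid, 1 higher of 7 granulocyte, 1 lower of 5 NK cell and 1 higher of 6 plasma cell markers, and their part was not tested. Against NoRx.F, with which it shares no batch, 3 genes were lower and 1 higher, where 8.69% of all genes were lower and 9.68% higher. ISG20 was lower by 0.97 ± 0.20 (adjusted p = 0.000277) and IFI35 by 0.83 ± 0.25 (adjusted p = 0.0136), with no overlap, and PARP14, an ADP-ribosyltransferase, by 0.90 ± 0.29 (adjusted p = 0.0231). OAS1 was higher by 0.69 ± 0.21 (adjusted p = 0.0169), while 2 of its other probe sets were lower, at -1.17 ± 0.33 and -1.18 ± 0.26. The median was -0.44. Without a batch term 9 genes were called, and without R.67 7.

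Recipients of their own cells also had raised interferon-stimulated genes. At day 14 12 of 30 were higher and 0 lower, with a median of 0.74 against 0.10 over all genes, and 13.7% of all genes were higher and 7.8% lower. IFI27 stood at 9.59 in R.200, 10.69 in R.201 and 12.10 in R.202 and rose by 3.46 ± 0.70 (adjusted p = 0.000766). ISG15 stood at 9.19 in R.200, 10.38 in R.201 and 10.87 in R.202 and rose by 2.55 ± 0.50 (adjusted p = 0.000536). IFIT1 stood at 7.01 in R.200, 9.14 in R.201 and 8.74 in R.202 and rose by 2.37 ± 0.82 (adjusted p = 0.0316). R.200 lay inside the healthy range in each of these genes, and R.201 and R.202 above it. MX1 stood at 8.33 in R.200, 9.87 in R.201 and 9.16 in R.202 and was not called (1.54 ± 0.62). MX2 at 1.88 ± 0.47 and XAF1 at 1.78 ± 0.37 were higher with no overlap, and OASL rose by 1.91 ± 0.47. R.201 and R.202 are also the arrays with high actin ratios, and without all 6 such arrays 0 genes were called, with R.200 the only array of the group. Without R.202 alone 3 were called, and 7 without R.201. The myeloid mean was 0.36 in R.200, 0.75 in R.201 and 1.34 in R.202, with R.202 just above the healthy range. Called markers were 1 lower of 7 T cell, 1 lower of 5 NK cell, 2 lower of 7 B cell and 1 higher and 1 lower of 6 plasma cell markers, and their part was not tested.

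Around day 36 12 genes were higher and 1 lower in autologous recipients, with a median of 0.59 against -0.0071. Of all genes 5.78% were higher and 5.26% lower. IFI27 stood at 11.16 in R.200, 11.997 in R.201, 10.30 in R.202 and 10.26 in R.62 and rose by 3.33 ± 0.56 (adjusted p = 9.23e-05). ISG15 stood at 9.47 in R.200, 10.09 in R.201, 9.23 in R.202 and 9.33 in R.62 and rose by 1.62 ± 0.39 (adjusted p = 0.00431). MX1 stood at 8.20 in R.200, 8.74 in R.201, 7.32 in R.202 and 10.09 in R.62 and IFIT1 at 7.30 in R.200, 8.24 in R.201, 5.93 in R.202 and 7.85 in R.62. Neither MX1 nor IFIT1 was called (1.16 ± 0.49 and 0.95 ± 0.65). MX2 (1.89 ± 0.37), GBP1 (1.13 ± 0.36) and OAS2 (1.06 ± 0.31) were higher with all 4 arrays above the healthy range, and LGALS3BP, a secreted glycoprotein, rose by 1.29 ± 0.40. OAS1 fell by 0.55 ± 0.16 (adjusted p = 0.0208), while another of its probe sets was higher at 0.97 ± 0.20. Without R.200 or R.201 3 genes were called, and 6 without R.202 or without the arrays of high actin ratio. R.62 had a myeloid mean of 2.85, against -0.41 to 0.65 in the other 3 arrays, and a gene mean of 0.69, against 0.38 to 0.98. Among cell type markers, those called were 2 higher of 13 myeloid, 1 higher of 3 plasmacytoid dendritic cell, 1 higher of 7 T cell and 1 higher of 6 plasma cell markers, and their part was not tested.

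At day 100 the autologous arrays had a gene mean of 0.43 ± 0.069 (SD, n = 4), after 0.76 ± 0.24 (n = 3) at day 14, a difference that was not tested. Here 1 gene was higher and 0 lower, where 1.68% of all genes were higher and 1.38% lower. The median difference was 0.46 against 0.03 over all genes. Of the 30 differences 27 were positive, where 55.9% of those of all genes were. EPSTI1 rose by 1.43 ± 0.38 (adjusted p = 0.0264), a call lost without any of the 4 arrays (0 genes called without R.60, R.200, R.201 or R.202). MX2 stood at 1.12 in the probe set used and was not called, while its other probe set was called higher, at 1.58. ISG15 stood at 8.47 in R.200, 8.76 in R.201, 8.34 in R.202 and 8.89 in R.60 and IFI27 at 9.22 in R.200, 8.29 in R.201, 8.07 in R.202 and 8.68 in R.60. MX1 stood at 8.04 in R.200, 8.65 in R.201, 7.27 in R.202 and 8.18 in R.60 and IFIT1 at 7.59 in R.200, 8.11 in R.201, 7.32 in R.202 and 7.73 in R.60. Among these, IFIT1 of R.201 alone exceeded the healthy range. Within the batches that hold the group 6 genes were called. In the 3 animals with arrays at both times, IFI27 changed from day 14 to day 100 by -0.37 in R.200, -2.40 in R.201 and -4.03 in R.202, and ISG15 by -0.72, -1.63 and -2.53. The gene mean changed by -0.015, -0.36 and -0.62, and IFIT1 by 0.58, -1.03 and -1.42. The larger changes were thus in the 2 animals whose day 14 arrays had high actin ratios. The part of RNA integrity was not tested. The myeloid mean at day 100 was -0.30 in R.200, 0.12 in R.201, -0.76 in R.202 and -0.37 in R.60. Among cell type markers, 1 of 6 plasma cell markers was called higher, and its part was not tested.

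**Figure D3:**
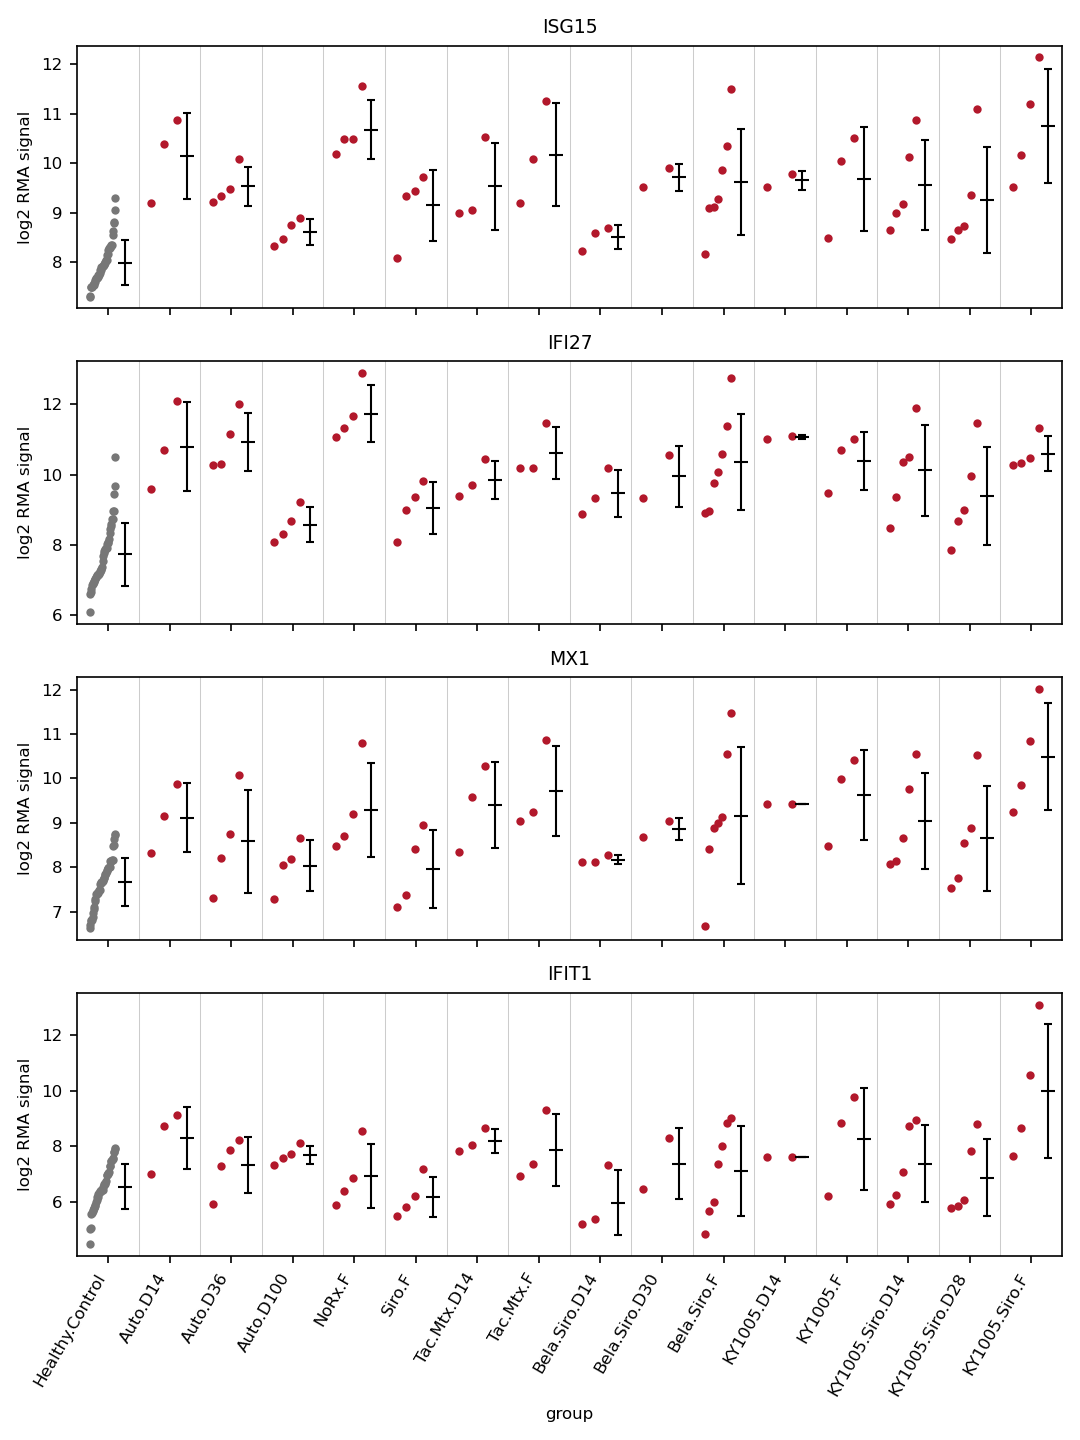
Level (y axis, log2 RMA signal) of ISG15, IFI27, MX1 and IFIT1 in each array (points) by group, with the group mean and SD (black). All 4 NoRx.F arrays exceed every healthy array for ISG15 and IFI27, while for IFIT1 only R.52 does, and the highest IFIT1 value is 13.10 in KY1005.Siro.F.

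Under KY1005 alone the mean of the 30 genes lay above the healthy range in 4 of 5 arrays. At days 14 to 16 1 gene was higher and 0 lower, where 0.168% of all genes were higher and 0.103% lower, with a median of 0.37 against -0.02. IFI27 stood at 11.02 in R.210 and 11.11 in R.212, both above the healthy range, and rose by 3.23 ± 0.76 (adjusted p = 0.0397). ISG15 stood at 9.52 in R.210 and 9.78 in R.212 and MX1 at 9.42 in R.210 and 9.41 in R.212. Both genes also lay above the healthy range in both animals and were not called (1.55 ± 0.54 and 1.72 ± 0.67). IFIT1 stood at 7.60 in R.210 and 7.60 in R.212, inside the healthy range. With 2 arrays the call rests on each, and 0 genes were called without R.210 or R.212. Their myeloid means were 0.39 in R.210 and -0.53 in R.212, and 0 of the markers of 9 cell types were called. In the later group 5 genes were higher and 0 lower, where 1.79% of all genes were higher and 2.03% lower, with a median of 0.45 against -0.05. IFI27 stood at 11.01 in R.206, 10.70 in R.211 and 9.46 in R.212 and rose by 2.55 ± 0.66 (adjusted p = 0.0181). ISG15 stood at 10.05 in R.206, 10.50 in R.211 and 8.49 in R.212 and rose by 1.58 ± 0.46 (adjusted p = 0.0409). MX1 stood at 9.99 in R.206, 10.40 in R.211 and 8.47 in R.212 and rose by 1.93 ± 0.58 (adjusted p = 0.0464). R.212, at day 23, lay inside the healthy range in all 3 genes, and its gene mean was 0.40 below that of its array at day 16. IFIT1 stood at 8.83 in R.206, 9.76 in R.211 and 6.21 in R.212 and was not called (1.64 ± 0.76). EPSTI1 rose by 1.90 ± 0.43 (adjusted p = 0.00653) and OAS2, in which all 3 arrays exceeded the healthy range, by 1.43 ± 0.37 (adjusted p = 0.0186). MX2 and SAMD9L were not called in the probe sets used, at 1.19 and 0.39. Their other probe sets were called higher, at 1.52 and 1.84. The gene mean was 0.95 in R.206, 1.08 in R.211 and 0.24 in R.212 and the myeloid mean 0.04 in R.206, 2.32 in R.211 and 0.63 in R.212. The markers called were 2 higher of 13 myeloid, 1 higher of 7 granulocyte, 1 higher of 3 plasmacytoid dendritic cell, 1 lower of 7 B cell, 1 higher of 6 plasma cell and 1 lower of 7 platelet markers, and their part was not tested. Without R.206 or R.211 0 genes were called, as within its batch alone. Against NoRx.F, which shares no batch with it, 1 gene was higher and 0 lower, where 4.53% of all genes were higher and 6.51% lower, and the median was -0.06 against -0.11. The gene was OAS1, at 0.85 ± 0.26 (adjusted p = 0.0249). Its 3 other probe sets, none of them called, stood at -1.05 ± 0.40, -0.51 ± 0.32 and 1.06 ± 0.58, and with the mean of all probe sets 0 genes were called. Without a batch term 4 genes were called, and 2 without R.52 or R.53 of NoRx.F.

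With KY1005 and sirolimus 5 animals gave arrays at days 14 and 28 and 4 of them, all but R.218, at about day 100. They differed from each other at the early times. At day 14 2 genes were higher and 1 lower, where 1.66% of all genes were higher and 2.94% lower, with a median of 0.33 against -0.02. IFI27 stood at 11.91 in R.217, 10.49 in R.218, 9.35 in R.219, 10.35 in R.220 and 8.49 in R.221 and rose by 2.28 ± 0.56 (adjusted p = 0.00862). ISG15 stood at 10.87 in R.217, 8.996 in R.218, 8.64 in R.219, 10.12 in R.220 and 9.18 in R.221 and rose by 1.46 ± 0.39 (adjusted p = 0.0194). MX1 stood at 10.55 in R.217, 8.67 in R.218, 8.07 in R.219, 9.76 in R.220 and 8.14 in R.221. R.217 and R.220 had MX1 above the healthy range, and the other 3 within it. IFIT1 stood at 8.73 in R.217, 7.08 in R.218, 5.91 in R.219, 8.93 in R.220 and 6.24 in R.221, high in the same 2 animals. Without R.217, 1 gene was called. The myeloid mean was 2.05 in R.217, 0.99 in R.218, 0.80 in R.219, 1.39 in R.220 and 1.41 in R.221, above the healthy range in R.217, R.220 and R.221. Called markers were 3 higher of 13 myeloid, 1 lower of 7 T cell, 1 lower of 7 B cell, 1 lower of 6 plasma cell and 1 lower of 7 platelet markers, and their part was not tested. At day 28 2 genes were higher and 1 lower, where 4.24% of all genes were higher and 7.02% lower, with a median of 0.16 against -0.06. ISG15 stood at 8.73 in R.217, 8.66 in R.218, 11.08 in R.219, 8.47 in R.220 and 9.37 in R.221 and rose by 1.16 ± 0.39 (adjusted p = 0.0393). IFI27 stood at 7.84 in R.217, 9.95 in R.218, 11.47 in R.219, 8.69 in R.220 and 8.98 in R.221, MX1 at 7.53 in R.217, 8.55 in R.218, 10.52 in R.219, 7.76 in R.220 and 8.89 in R.221 and IFIT1 at 5.77 in R.217, 6.06 in R.218, 8.82 in R.219, 5.84 in R.220 and 7.83 in R.221. R.219 lay above the healthy range in all 4 genes and R.221 in ISG15 and MX1, while R.217, R.218 and R.220 lay inside it. OAS1 rose by 0.49 ± 0.16 (adjusted p = 0.0362), with 2 of 5 arrays above the healthy range, while 2 of its other probe sets had differences of -0.23 ± 0.26 and -0.17 ± 0.21. SAMD9L stood at -0.18 in the probe set used and was not called, while its other probe set was called higher, at 1.10. Without R.221, 1 gene was called. The myeloid mean of R.219 was -0.95 at that time, and that of the other 4 animals 0.57 to 0.94. Among cell type markers, those called were 1 higher and 1 lower of 7 T cell, 1 lower of 7 B cell, 1 lower of 6 plasma cell and 1 lower of 7 platelet markers. From day 14 to day 28 the gene mean changed by -1.40 in R.217, -0.92 in R.220, -0.30 in R.218, 0.35 in R.221 and 1.07 in R.219. No member was called between the days by limma (0 higher and 0 lower, 1 at an unadjusted p under 0.05), where 0% of all genes were higher and 0.00933% lower, and the median was -0.25.

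At days 97 to 106 under KY1005 and sirolimus 18 of 30 genes were higher and 1 lower than in healthy controls, the most of the 15 groups, with a median difference of 0.77 against -0.09 over all genes. Of all genes 4.48% were higher and 3.39% lower. IFIT1 stood at 7.65 in R.217, 13.10 in R.219, 8.65 in R.220 and 10.57 in R.221 and rose by 3.36 ± 0.69 (adjusted p = 0.0007). MX1 stood at 9.84 in R.217, 12.01 in R.219, 9.25 in R.220 and 10.85 in R.221, all above the healthy range, and rose by 2.79 ± 0.53 (adjusted p = 0.000182). ISG15 stood at 9.52 in R.217, 12.13 in R.219, 10.16 in R.220 and 11.20 in R.221, also without overlap, and rose by 2.65 ± 0.42 (adjusted p = 7.94e-06). IFI27 stood at 10.34 in R.217, 11.33 in R.219, 10.26 in R.220 and 10.46 in R.221, of which R.219 alone exceeded the healthy range, and rose by 2.76 ± 0.60 (adjusted p = 0.00131). R.217, R.220 and R.221 lay below no healthy array but that of R.47, at 10.49. IFI44, an interferon-induced cytoplasmic protein, and IFIT3, the partner of IFIT1, rose by 2.89 ± 0.53 and 2.65 ± 0.45. MX2 (1.97 ± 0.40), OASL (1.87 ± 0.40) and HERC6 (1.44 ± 0.29) did not overlap with healthy animals. SAMD9L, a growth-limiting antiviral protein, rose by 1.06 ± 0.23 and STAT2 by 0.59 ± 0.14. The guanylate-binding proteins were not called by the probe sets used, with GBP1 at 0.63 ± 0.39 and GBP2 at 0.63 ± 0.37. For GBP1 that probe set had the lowest difference of the 5 tested, and 3 of the 5 were called higher, by up to 1.88. IRF7 fell by 0.73 ± 0.16 (adjusted p = 0.00103) in the probe set used. R.219 stood highest, with 24 of 30 genes above their healthy range and a gene mean of 2.15. The share of all genes above their healthy range in that array is not given here. Without R.219 7 genes were called. Within batch 6 alone, with its 7 healthy arrays, 6 were called.

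Within animals the gene mean was higher in the last array than on day 28 in each of 4 animals, by 0.87 in R.217, 1.06 in R.219, 0.82 in R.220 and 1.07 in R.221. IFIT1 changed by 1.88, 4.28, 2.81 and 2.74 in the same order and MX1 by 2.31, 1.49, 1.49 and 1.96. From day 14 the picture was mixed, with gene mean changes of -0.54 in R.217 and -0.099 in R.220 but 2.12 in R.219 and 1.42 in R.221. Between the groups at day 28 and at the last time 11 genes were higher and 0 lower, where 2.24% of all genes were higher and 0.299% lower, with a median of 0.90 against -0.03. IFIT1 rose by 3.13 ± 0.74 (adjusted p = 0.00826), IFIT3 by 2.03 ± 0.48 (adjusted p = 0.00745) and SAMD9L by 1.23 ± 0.24 (adjusted p = 0.00115). GBP1 rose by 1.45 ± 0.42 and PARP9 by 1.00 ± 0.24. With the animal as a fixed replicate block in the KY1005.Siro arrays alone 0 were called, as within batch 6 alone. With the animal as a random replicate block in all arrays 15 were called. Leaving out 1 array at a time gave 0 without the last array of R.219, 7 without that of R.221, and 4 and 5 without the day 28 arrays of R.217 and R.220. The myeloid mean in the last arrays was -0.67 in R.217, 3.80 in R.219, 2.19 in R.220 and 2.23 in R.221. The markers called were 6 higher of 13 myeloid, 4 higher of 7 granulocyte, 2 lower of 7 T cell and 3 higher of 6 erythroid markers. Among them were S100A12 at 2.59 ± 0.42, CD14 at 1.56 ± 0.46, MMP9 at 3.43 ± 0.50 and the erythroid transporter SLC25A37 at 2.49 ± 0.37. The mean of 6 erythroid markers was 1.42 in R.217, 0.56 in R.219, 0.80 in R.220 and 2.43 in R.221, where healthy arrays reached 1.32. That of 7 T cell markers was -0.62 in R.219, below every healthy array, and inside the healthy range in the other 3. R.217, with a myeloid mean below 0 and an erythroid mean above every healthy array, had MX1 at 9.84 and a gene mean of 0.71. The part of these markers was not tested beyond the myeloid mean. With the myeloid mean as a covariate 16 genes were called against healthy controls and 2 against day 28.

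**Figure D4:**
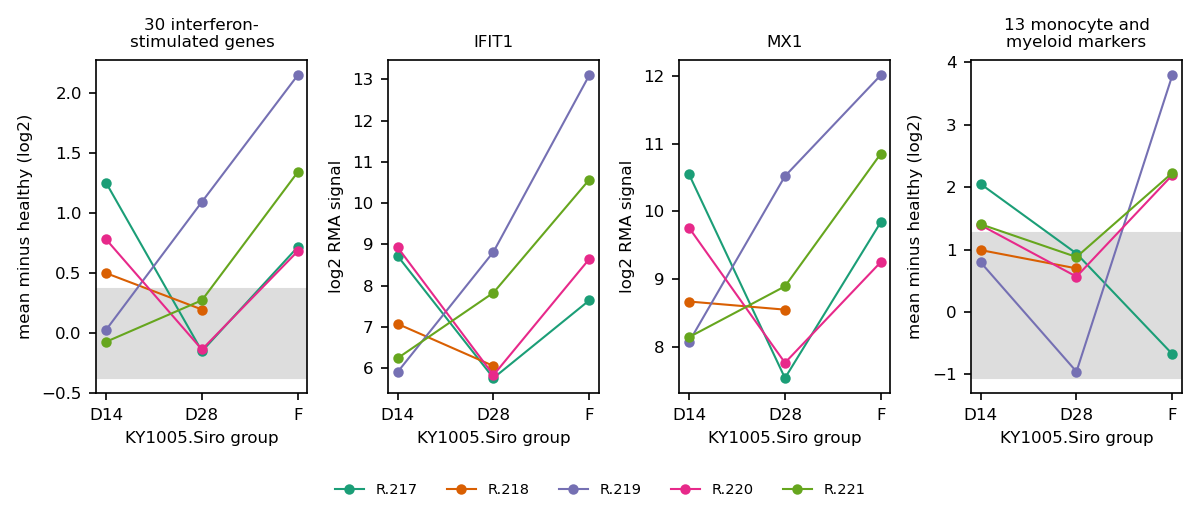
KY1005.Siro animals (lines, 5 animals, 4 at the last time) at D14, D28 and F (x axis, days 14, 28 and 97 to 106): the mean of 30 interferon-stimulated genes, IFIT1, MX1 and the mean of 13 monocyte and myeloid markers (y axes, log2; grey bands, range of healthy arrays). The gene mean is higher at F than at D28 in all 4 animals.

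Set against the late arrays of belatacept with sirolimus, KY1005.Siro.F had 5 genes higher and 0 lower, where 2.7% of all genes were higher and 2.1% lower, with a median of 0.58 against -0.14. IFIT1 was higher by 2.99 ± 0.86 (adjusted p = 0.0333), IFI44 by 2.29 ± 0.66 (adjusted p = 0.0337) and IFIT3 by 2.21 ± 0.56 (adjusted p = 0.0163). PARP14 (0.98 ± 0.30) and STAT2 (0.56 ± 0.18) were the others. The groups share no batch, and all but R.67 of the belatacept arrays are from days 26 to 64. Without R.219 0 genes were called, and 1 without R.221 or without R.49 or R.66 of Bela.Siro.F. Without R.42 of that group 2 were called, and without R.217 9. Autologous recipients at day 100, the nearest in time, also share no batch with KY1005.Siro.F, so that the difference rests on the batch term. Against them 5 genes were higher and 1 lower, where 3.12% of all genes were higher and 4.95% lower, with a median of 0.39 against -0.11. Higher were IFI44 by 2.43 ± 0.75, adjusted p = 0.0327, MX1 by 2.35 ± 0.74, adjusted p = 0.0366, IFIT3 by 2.29 ± 0.62, adjusted p = 0.0162, HERC6 by 1.51 ± 0.41, adjusted p = 0.0157, and OAS1 by 0.99 ± 0.25, adjusted p = 0.00893. In each of these 5 genes all 4 arrays lay above all 4 autologous ones, a description of the values that gave the calls. The other probe sets of OAS1 stood at -0.17 ± 0.39, -0.07 ± 0.31 and 1.83 ± 0.57, the last of them called. IRF7 was lower by 0.77 ± 0.22 (adjusted p = 0.0204), and its other probe set was called higher, at 1.20 ± 0.40. Without R.219 2 were called, and without R.220 3. With the myeloid mean as a covariate 0 were called. Without a batch term 10 were called in each of these 2 comparisons.

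IRF7, the factor that drives the second wave of type I interferon, gave opposite results in its 2 probe sets. The one with the higher mean fell in 5 of 15 groups, by 1.05 ± 0.19 in Bela.Siro.D30, 0.97 ± 0.15 in KY1005.Siro.D28, 0.73 ± 0.16 in KY1005.Siro.F, 0.67 ± 0.15 in KY1005.Siro.D14 and 0.58 ± 0.12 in Bela.Siro.F. In the other groups it was not called, with -0.48 ± 0.16 in Bela.Siro.D14 and 0.13 ± 0.14 in Siro.F. The other probe set was positive in all 15 groups, from 0.43 to 1.64, and was called higher in 8, among them KY1005.Siro.F at 1.64 ± 0.28 and Tac.Mtx.F at 1.59 ± 0.29. Bela.Siro.F, KY1005.Siro.D14 and KY1005.Siro.F were thus called lower by the first and higher by the second, so the direction for IRF7 depends on the probe set. In levels the first probe set had a mean of 9.35 ± 0.27 (SD, n = 45) in healthy animals, 8.37 ± 0.28 (n = 2) in Bela.Siro.D30, 8.47 ± 0.20 (n = 5) in KY1005.Siro.D28 and 9.42 ± 0.27 (n = 4) in Siro.F. OAS1, which makes 2-5A to activate RNase L, had 4 tested probe sets. The one used was called higher in 2 groups and lower in 2, and 2 others were called higher in 3 each and lower in none. IFIT2, an RNA-binding effector, was not called by its brightest probe set, but 2 others were higher in KY1005.Siro.F, by 2.84 ± 0.46 and 2.20 ± 0.45. For GBP1 all 5 tested probe sets were called in 2 or 3 groups, always higher.

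IRF1, the early factor of the interferon gamma response, was not called in any of 15 groups. Its level was 10.02 ± 0.30 (SD, n = 45) in healthy animals, 9.52 ± 0.23 (n = 4) in NoRx.F, 10.76 ± 0.17 (n = 4) in Auto.D100 and 10.31 ± 0.79 (n = 4) in KY1005.Siro.F, and its differences ran from -0.50 to 0.73. STAT2 had a level of 6.49 ± 0.19 in healthy animals, 7.04 ± 0.30 (n = 4) in KY1005.Siro.F and 6.85 ± 0.090 (n = 4) in Auto.D36, the groups in which it was called higher, at 0.59 ± 0.14 and 0.39 ± 0.13. In the other groups its mean lay between 6.41 in Bela.Siro.D14 and 6.88 in Tac.Mtx.F. DDX60, a helicase that assists RNA sensors, was called in Tac.Mtx.F at 0.51 ± 0.18 (adjusted p = 0.0467). The other DDX60 probe set was called higher in Bela.Siro.F at 0.78 and in KY1005.Siro.F at 1.65. There the one used stood at -0.16 and -0.11 and was not called. TRIM22, a ubiquitin ligase, was called in Auto.D36 at 0.90 ± 0.28 and OAS3, another 2-5A synthetase, in NoRx.F at 0.73 ± 0.28.

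In 11 animals a healthy array of the same animal was at hand, which gave 18 comparisons that do not depend on other animals. The gene mean was higher after transplant in 18 of 18, by 0.069 to 1.08, with 17 to 27 of the 30 genes higher. IFI27 was higher in 17, by up to 5.09 in R.202 at Auto.D14, MX1 in 17, ISG15 in 16 and IFIT1 in 13. The smallest changes were 0.069 in R.49 at Bela.Siro.D14 and 0.090 in R.60 and 0.12 in R.201 at Auto.D100. The largest were 1.08 in R.202 at Auto.D14 and 1.06 in R.206 under KY1005. The Auto.D14 arrays of R.202 and R.201 had high actin ratios, 3.38 and 3.30 (log2), and the part of RNA integrity was not tested. R.53 of NoRx.F had a change of 0.63, with IFI27 up by 3.26, and the sirolimus animals R.13, R.16 and R.18 had 0.40, 0.31 and 0.61. No test was made on these values, and the animals R.200, R.201 and R.202 each count 3 times. The share of all genes that were higher in each pair is not given here. The lowest count, 17 of 30 genes, was in R.49 at Bela.Siro.D14. In the fit of that group against healthy controls, 62.9% of all genes had a positive difference. The pairs are not adjusted for batch. In 8 of the 18 the arrays are of different labelled batches: those of R.200, R.201 and R.202 at days 14 and 100 (batches 5 and 4), R.206 (6 and 5) and R.16 (1 and 2).

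**Figure D5:**
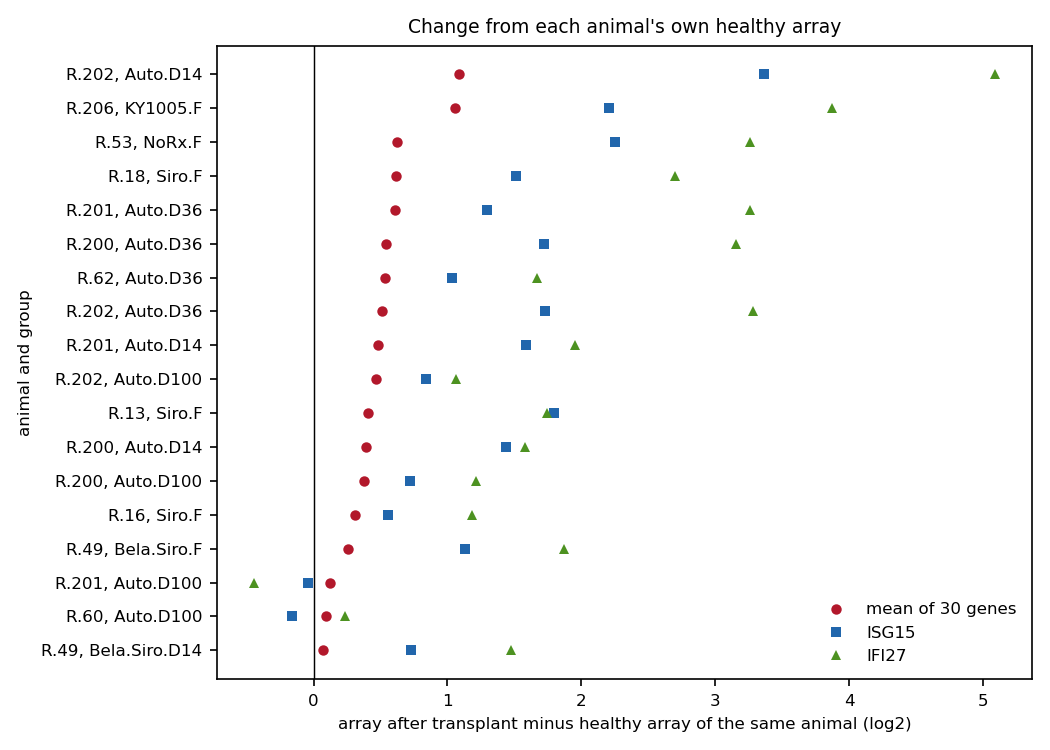
Array after transplant minus the healthy array of the same animal (x axis, log2) for the mean of 30 genes, ISG15 and IFI27 in 18 comparisons from 11 animals (y axis). All 18 values of the mean lie above 0.

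Other genes of the pathway were taken from lists by role. Of 5 measured receptor and kinase genes, JAK2, which serves the interferon gamma receptor, was higher in Bela.Siro.F (0.65 ± 0.18), KY1005.F (1.03 ± 0.26), KY1005.Siro.F (0.96 ± 0.24), Siro.F (0.70 ± 0.22) and Tac.Mtx.F (0.79 ± 0.25). IFNAR2, a chain of the type I receptor, was higher in Bela.Siro.F (0.61 ± 0.20) and Tac.Mtx.F (1.01 ± 0.27). Of the ligands only IFNG and IFNL1 of 15 listed had a probe set of their own that passed the filter. IFNG was higher in Siro.F (1.56 ± 0.52) and Tac.Mtx.F (1.98 ± 0.59), and in the KY1005.Siro groups its differences were -0.82 ± 0.54, -0.87 ± 0.54 and -0.85 ± 0.58, none of which was called. Its healthy mean was 5.40. IFNL1, a type III interferon, was lower in KY1005.Siro.F (-0.53 ± 0.14). Of 15 sensing genes RIGI, a cytosolic RNA sensor, was higher in KY1005.Siro.F (1.64 ± 0.29) and Tac.Mtx.F (1.02 ± 0.30). DHX58, its relative LGP2, was lower in NoRx.F (-1.38 ± 0.16), Siro.F (-0.88 ± 0.15), Bela.Siro.F (-0.37 ± 0.13) and KY1005.Siro.D14 (-0.50 ± 0.16). Among 7 inhibitors SOCS3, which blocks cytokine receptors, was higher in KY1005.Siro.D28 (2.01 ± 0.28), Bela.Siro.D14 (1.55 ± 0.30), Bela.Siro.D30 (1.45 ± 0.36), Bela.Siro.F (0.99 ± 0.22) and Tac.Mtx.F (0.88 ± 0.30). PIAS1 was lower in NoRx.F (-1.10 ± 0.14) and Bela.Siro.D14 (-0.52 ± 0.15). In NoRx.F, where 19% of all genes were higher and 15.2% lower, the sensing list had 2 higher and 1 lower of 15 and the inhibitors 1 and 1 of 7. In KY1005.Siro.F, where 4.48% of all genes were higher and 3.39% lower, the sensing list had 3 higher and 0 lower and the inhibitors 1 and 0. With lists this short, 1 called gene is not set apart from the share over all genes.

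A further list of interferon-induced genes, 28 of which were measured, had 16 higher and 2 lower in NoRx.F, 9 and 0 in Tac.Mtx.F, 8 and 1 in Auto.D14, and 8 and 0 in KY1005.Siro.F. The shares of all genes called higher and lower were 19% and 15.2% in NoRx.F, 10.1% and 2.82% in Tac.Mtx.F, 13.7% and 7.8% in Auto.D14, and 4.48% and 3.39% in KY1005.Siro.F. UBE2L6, the enzyme that passes ISG15 on, was higher in 11 of 15 groups, among them NoRx.F (1.20 ± 0.13) and Bela.Siro.D14 (0.88 ± 0.14), and PSMB10, an immunoproteasome subunit, in 6, with these among them (1.54 ± 0.16 and 0.72 ± 0.17). CMPK2, a mitochondrial nucleotide kinase encoded beside RSAD2, was higher in 6 groups, among them KY1005.Siro.F (2.93 ± 0.45), Tac.Mtx.D14 (2.21 ± 0.46) and Tac.Mtx.F (2.21 ± 0.46). Against the same shares, genes typical of interferon gamma, 7 in all, had 4 higher in NoRx.F, among them WARS1, a tRNA synthetase, at 2.14 ± 0.22 and IFI30, a lysosomal thiol reductase, at 2.16 ± 0.43. In KY1005.Siro.F 3 were higher, among them IDO1, which degrades tryptophan, at 2.98 ± 0.71, while WARS1 was not called there. Bela.Siro.D14, with none of the 30 genes called, had IDO1 at 2.72 ± 0.72 and WARS1 at 1.03 ± 0.24 higher.

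The non-member genes whose array-to-array variation was most like the mean of the 30 genes were sought across 101 arrays after group and batch means were removed. The 10 with the highest Pearson correlation, from 0.76 to 0.62, were TTLL6, AMBP, RPL24, TMEM140, SP100, TRIM21, LOC711784, RIGI, TAP1 and DTX3L, as the annotation names them. The median over 10688 genes was 0.0090. Among them 5, SP100, TRIM21, RIGI, TAP1 and DTX3L, are on the further list. TMEM140, a membrane protein, had 0.68 over all arrays and 0.67 in healthy arrays alone. The correlation of the gene mean with the myeloid mean, both after removal of group and batch means, was 0.059 over 45 healthy arrays and 0.18 over 56 arrays after transplant.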

How the data were processed

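RNA of sorted T cells was labelled from the 3' end and hybridised to Affymetrix arrays. The authors deposited log2 RMA signal intensities, per the labels and the submitters' processing notes, which name RMA and affy; versions are not given in the sources used here. Of 52865 probe sets, 24969 have 1 gene in the annotation, 361 several and 27535 none. Both healthy arrays of R.201 were averaged.

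One limma model (3.58.1, R 4.3.3) held 16 groups and 6 labelled batches over 101 arrays, with 80 residual degrees of freedom. Tested were the 31711 probe sets that reached 5.21, the median over the whole table, in 3 or more arrays, with Benjamini-Hochberg adjustment over them. A gene is its brightest probe set of 1 gene (10718 genes). The fit was tested on simulated data. Array number and animal number limit the precision, and p-values measure the spread between arrays, some from the same animal.

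Before any adjustment here, healthy arrays had a batch F test p under 0.05 in 0.178% of probe sets and above 0.95 in 29.9%, where chance gives 5% each. What was done to batches before deposit is not given in the sources used here, and p-values may be affected.

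Genes named were ISG15, MX1, IFI27 and IFIT1 in every group, up to 6 called members of largest difference in each comparison, up to 4 called lower, and those the text singles out after their values were seen. The members and gene lists were chosen with earlier results of these data known. Alternatives covered the batch term, the animal as a block, the filter, the probe set, the prior, normalization, the actin ratio, a myeloid covariate and leaving out arrays. Promoter and probe sequences are not analysed here.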

Additional observations from a re-analysis of the deposited data

Results flagged for a closer look

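Among 248 sets of values (30 genes and their mean, in groups of 4 to 7 arrays), 9 had an array far from the others by Dixon's test. Chance gives about 1 in 20, so that 9 of 248 is not above the share from chance. The arrays are listed as a description. In NoRx.F the mean of the genes was 1.54 in R.52. In KY1005.Siro.D28 R.219 stood apart for IFIH1 at 10.2 and SAMD9L at 10.4. In Auto.D100 R.201 stood apart for IFIH1 at 10.04 and R.60 for TRIM22 at 10.01. LGALS3BP was far off at 8.54 in R.62 of Auto.D36 and at 7.08 in R.42 of Bela.Siro.F. GBP1 was at 8.90 in R.38 of Bela.Siro.F, and STAT2 at 6.27 in R.18 of Siro.F.

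Between the early and the late array of the same animal, some values changed in opposite directions under different regimens in each of 3 animals, a difference that was not tested. These values were picked because they met that rule. The share of all genes that meet it is not given here, so they are not set apart from chance. From Auto.D14 to Auto.D100 ISG15 changed by a mean of -1.62, IFI27 by -2.27, MX1 by -1.13 and the mean of the 30 genes by -0.33, lower in 3 of 3 animals. The day 14 arrays of R.201 and R.202 had high actin ratios. In R.200, with a low ratio, the mean of the 30 genes changed by -0.015 and IFI27 by -0.37, and IFIT1 by 0.58. From Tac.Mtx.D14 to Tac.Mtx.F ISG15 changed by 0.64 and IFI27 by 0.77, higher in 3 of 3, while in R.19 the mean of the 30 genes changed by -0.17 and MX1 by -0.54, and IFIT1 was lower in R.19 and R.21. From Bela.Siro.D14 to Bela.Siro.F ISG15 changed by 0.86, MX1 by 0.64, IFI27 by 0.31 and the mean of the 30 genes by 0.16, again higher in 3 of 3. From KY1005.Siro.D14 to KY1005.Siro.F the mean of the 30 genes changed by -0.54 to 2.12, in no common direction. The late days differ, 100 in Auto.D100 against 26 to 67 and 29 to 64.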

How the results depend on the processing

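With the animal as a random replicate block (consensus correlation 0.11, 22 animals), the trended robust prior or the first R.201 array alone, all 22 counts of called genes stayed within 1.5 times, and with the block none of 134 called gene results lost its call. The fixed animal block gave 0 for KY1005.Siro.F against D28. Without the batch term the count became 2 in Auto.D100, 2 in Bela.Siro.D30, 14 in Bela.Siro.F, 8 in KY1005.Siro.D14, 5 in KY1005.Siro.D28, 7 in Tac.Mtx.D14, 5 in Siro.F against NoRx.F, 4 in KY1005.F and 9 in Bela.Siro.F against NoRx.F, and 10 in KY1005.Siro.F against Bela.Siro.F and Auto.D100. Within the batches that hold the group it was 6 in Auto.D100, 0 in KY1005.D14, 0 in KY1005.F, 1 in KY1005.Siro.D28, 6 in KY1005.Siro.F and 0 in KY1005.Siro.F against D28; this could not be fitted for the 4 comparisons that share no batch.

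Without the filter it was 0 in KY1005.D14, 3 in KY1005.F, 1 in KY1005.Siro.D28 and 3 in KY1005.Siro.F against Bela.Siro.F. With the mean of all probe sets it was 2 in Auto.D100, 1 in Bela.Siro.D14, 0 in Bela.Siro.D30, 1 in KY1005.Siro.D28, 0 in KY1005.F against NoRx.F and 2 in Bela.Siro.F against NoRx.F. Quantile normalization gave 2 in Bela.Siro.D30 and 2 in KY1005.F against NoRx.F. Without the 6 arrays of high actin ratio it was 2 in Auto.D100, 0 in Auto.D14, 6 in Auto.D36, 1 in Bela.Siro.D14, 0 in KY1005.D14, 0 in KY1005.F, 1 in KY1005.Siro.D28, 0 in KY1005.F against NoRx.F, 1 in KY1005.Siro.F against Bela.Siro.F and 3 against Auto.D100. The myeloid covariate gave 3 in KY1005.F, 2 in KY1005.F against NoRx.F, 2 in KY1005.Siro.F against D28 and 0 against Auto.D100.

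As the mean of its probe sets, OAS1 turned to 0.16 in Auto.D36, 0.51 in NoRx.F and -0.25 in Bela.Siro.F against NoRx.F, and IRF7 to 0.0098 in Bela.Siro.D30, 0.27 in Bela.Siro.F, 0.12 in KY1005.Siro.D14, 0.45 in KY1005.Siro.F and 0.22 against Auto.D100.

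Leaving out 1 array gave 0 in each case in Auto.D100 and KY1005.D14, 3 to 15 in Auto.D14, 3 to 11 in Auto.D36, 0 to 1 in Bela.Siro.D30, 5 to 10 in Bela.Siro.F, 0 to 5 in KY1005.F, 1 to 3 in KY1005.Siro.D14 and D28, 7 to 21 in KY1005.Siro.F, 9 to 18 in NoRx.F, 0 to 3 in Siro.F and Tac.Mtx.D14, and 2 to 11 in Tac.Mtx.F. Between groups it gave 0 to 5 for Siro.F, 1 to 2 for KY1005.F and 3 to 7 for Bela.Siro.F against NoRx.F, 0 to 15 for KY1005.Siro.F against D28, 0 to 9 against Bela.Siro.F and 2 to 7 against Auto.D100. A lone array left in a group of 2 is assumed to vary like the others. Groups of 2 to 5 arrays limit what can be called.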
